A study of Rattus norvegicus with 9 samples.

Results

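The genes described here encode the machinery that moves newly made secretory proteins into the endoplasmic reticulum (ER), folds them there and removes those that fail to fold. The list held 49 genes: 9 luminal chaperones and their partners, 2 lectin chaperones, 10 disulfide and proline enzymes, 5 stress sensors and regulators, 8 genes of ER-associated degradation, 9 of translocation, 3 of the signal peptidase and 3 of the oligosaccharyltransferase. A gene was taken from the list through the symbol of its probe set in the array's annotation, and where a gene had several probe sets the brightest on average over the 9 arrays stood for it. Of the 49 genes, 48 had such a probe set, all 48 passed the filter on dim probe sets, and no named probe set was found for Ern1, the stress sensor IRE1. They were 48 of 11619 genes tested.

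Expression was measured on Affymetrix Rat Genome 230 2.0 arrays in total RNA of pancreatic islets from male Zucker Diabetic Fatty rats (ZDF, fa/fa), which carry a defective leptin receptor and become obese and diabetic. All animals ate the Purina 5008 diet, and 24 were randomised. Treated rats received rosiglitazone (Avandia tablets, powdered), a drug that activates the nuclear receptor PPAR gamma, mixed into their food from week 5 to week 9 of age so as to give 3 mg per kg body weight, and were killed at 9 weeks. Withdrawal rats received the same drug over the same weeks and were killed at 11 weeks, 2 weeks after it was stopped, and untreated rats were killed at 13 weeks. Each group had 3 arrays, which the labels call biological replicates. Age and treatment differed together between all groups, so that their parts in any difference cannot be told apart, and no lean animals entered the comparisons.

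A protein bound for secretion carries a signal peptide that the signal recognition particle binds, and passes through the Sec61 channel while the signal peptidase removes the peptide and the oligosaccharyltransferase adds sugar chains. Inside, BiP and other chaperones, the lectins calnexin and calreticulin and the disulfide isomerases fold it, and chains that stay unfolded are drawn back out and degraded. When unfolded chains build up, ATF6, IRE1 and PERK start the unfolded protein response, which raises many of these genes. Beta cells make insulin, a disulfide-bonded hormone, in large amounts and are known for their reliance on this machinery, as are pancreatic acinar cells and plasma cells.

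Values are deposited log2 signals, and differences are log2 differences, so that a difference of 1 is a 2-fold change. The arrays did not share a common spread. The standard deviation over probe sets was 1.84 to 2.00 on treated, 1.65 to 1.72 on withdrawal and 1.66 to 1.77 on untreated arrays, so bright probe sets as a class stood higher on treated arrays, and most ER genes are bright. Each result is therefore given as deposited and after quantile normalization, which gives all arrays the same distribution. Islet identity was plain in the hormone genes: Ins1 measured 14.27, 14.15 and 14.21 on treated, 14.14, 14.07 and 14.12 on withdrawal and 14.16, 14.16 and 14.23 on untreated arrays, and Ins2 measured 14.36, 14.26 and 14.25 on treated, 14.16, 14.16 and 14.20 on withdrawal and 14.16, 14.14 and 14.20 on untreated arrays. The insulin probe sets sit at the top of the scale, whose highest value was 14.4, with a treated minus untreated difference of 0.03 for Ins1 and 0.12 for Ins2 that did not pass the threshold (limma, adjusted p = 0.874 and 0.401). The groups overlapped for Ins1, while for Ins2 every treated value lay above every other value. Acinar markers were also near the top of the scale, with array means of 12.5 to 12.8 in every group. In such bulk RNA, fewer cells of a type and less RNA per cell cannot be told apart.

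Some promoters of these genes carry elements through which the unfolded protein response acts, and these are shown because the genes are compared below by whether they hold them. RefSeq promoter windows of build GRCr8 were used for 39 of the 49 genes, and the 250 bases before the start of each gene were searched on both strands. The ER stress response element, ERSE (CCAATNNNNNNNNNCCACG), bound by ATF6 together with NF-Y, was found in 7 of the 39 genes (17.95%) and in 21 of 27457 promoters of the same length (0.0765%). ERSE-II (ATTGG and CCACG with 1 base of any kind between them) was found in 2 of the 39 genes (5.13%) and in 14 of all promoters (0.0510%). The stretches below are written 5′ to 3′ along each gene's strand, with the matches in capitals. A match on the reverse strand reads as the reverse complement.
Hspa5 (chr3:38452963-38453001, plus strand): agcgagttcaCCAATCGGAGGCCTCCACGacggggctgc
Hsp90b1 (chr7:23012337-23012479, minus strand): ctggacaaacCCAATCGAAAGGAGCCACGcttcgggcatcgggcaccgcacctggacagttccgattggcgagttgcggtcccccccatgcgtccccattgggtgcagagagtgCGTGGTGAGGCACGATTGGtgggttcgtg
Dnajc3 (chr15:102432524-102432562, plus strand): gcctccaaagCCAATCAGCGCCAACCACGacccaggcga
Creld2 (chr7:121789229-121789267, plus strand): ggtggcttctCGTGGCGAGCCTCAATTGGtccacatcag
Calr (chr19:40213125-40213163, plus strand): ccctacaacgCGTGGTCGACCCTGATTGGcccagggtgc
Ero1b (chr17:92941448-92941486, plus strand): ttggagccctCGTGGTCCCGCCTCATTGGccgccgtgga
Xbp1 (chr14:84604548-84604586, plus strand): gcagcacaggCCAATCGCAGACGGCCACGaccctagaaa
Hyou1 (chr8:53602684-53602814, plus strand): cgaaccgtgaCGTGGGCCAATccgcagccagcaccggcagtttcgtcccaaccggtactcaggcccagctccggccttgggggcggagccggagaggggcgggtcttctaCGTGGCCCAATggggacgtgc
Herpud1 (chr19:10614811-10614841, minus strand): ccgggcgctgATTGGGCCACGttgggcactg
Hsp90b1 held 2 ERSE matches and Hyou1 held 2 ERSE-II matches. The Hyou1 window alone among the 39 also held the letters TGACGTGG, overlapping its ERSE-II, against 163 of all promoters (0.594%). The shorter parts were common in all promoters: CCACG was in 26 of the 39 genes (66.7%) and in 29.5% of promoters, and CCAAT in 29 (74.4%) and in 36.1%. A match is a run of letters, not a bound site.

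**Figure D1:**
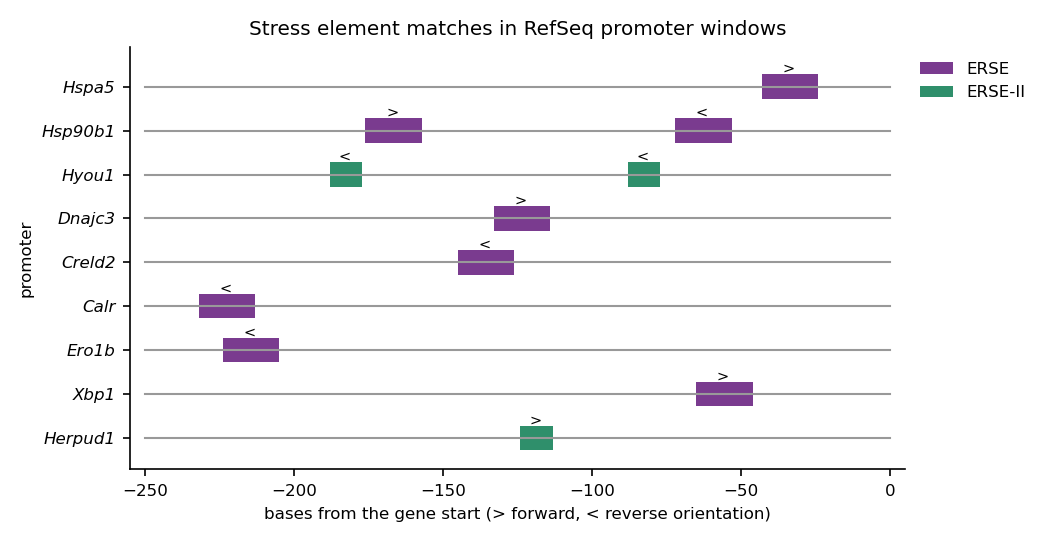
Positions of ERSE and ERSE-II matches in the 250 bases before the start of the 9 of these genes that hold one, with 0 at the gene start on the horizontal axis, in bases. Bars mark matches and the signs above them the strand; the match of Hspa5 lies 43 to 25 bases before the start, and that of Calr 232 to 214 bases before it.

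Treated minus untreated sets the folding machinery of 9-week islets under the drug beside that of 13-week islets without it. As deposited, 31 of the 48 genes rose on treated arrays, none fell and 17 did not pass the threshold (limma, Benjamini-Hochberg adjusted p under 0.05 over 20695 probe sets). At an unadjusted p under 0.05, 42 were higher and 0 lower, against 8765 of all 20695 tested probe sets in either direction. Over all tested probe sets 20.9% rose and 7.24% fell. The median difference of the 48 genes was 0.60, a 1.51-fold level, with a range from -0.04 to 1.82, against a median of 0.16 over all tested probe sets. Sdf2l1, a partner of the J-domain chaperones, stood highest, and the other differences above 1 were those of Creld2, Wfs1, the signal peptidase subunits Spcs2 and Spcs3 and the BiP co-chaperone Dnajb9. In 35 of the 48 genes every treated array lay above every untreated array, against 31.2% of all tested probe sets. The count rested in part on untreated array 2, the dimmest of its group for these genes. Without it 14 genes rose, and over all tested probe sets 1464 rose instead of 4318.

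Other bright probe sets rose too. Among probe sets with a mean log2 of 10 or more, 20 of 28 member genes rose against 51.4% of all, with a median difference of 0.62 against 0.52. At a mean of 8 to 10, 9 of 15 rose against 47.6%, with medians of 0.58 and 0.46. Below 8 it was 2 of 5 against 14.8%, with medians of 0.49 and 0.09.

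After quantile normalization, 6 of the 48 genes rose, namely Sdf2l1, Wfs1, Creld2, Spcs3, Spcs2 and Dnajb9, and Edem2 and Dnajb11 fell. Over all tested probe sets 7.75% rose and 9.44% fell on that scale. The members' median was 0.09 and their range -0.48 to 1.24, and 25 genes called as deposited did not pass. The sign differed between both scales for 14 genes, none of which passed on both. Of the 8 calls, Sdf2l1, Creld2, Spcs2 and Wfs1 passed in all 9 fits that left out an array in turn, Spcs3 in 8, Dnajb9 and Edem2 in 5 and Dnajb11 in 1. Without untreated array 2 the count that rose was 4, and over all tested probe sets 514 rose instead of 1604. The call for Edem2 was lost without treated array 1, treated array 3, untreated array 1 or untreated array 2, and that for Dnajb11 held only without treated array 3. The call for Dnajb9 was lost without treated array 2, treated array 3, untreated array 1 or untreated array 2.

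**Figure D2:**
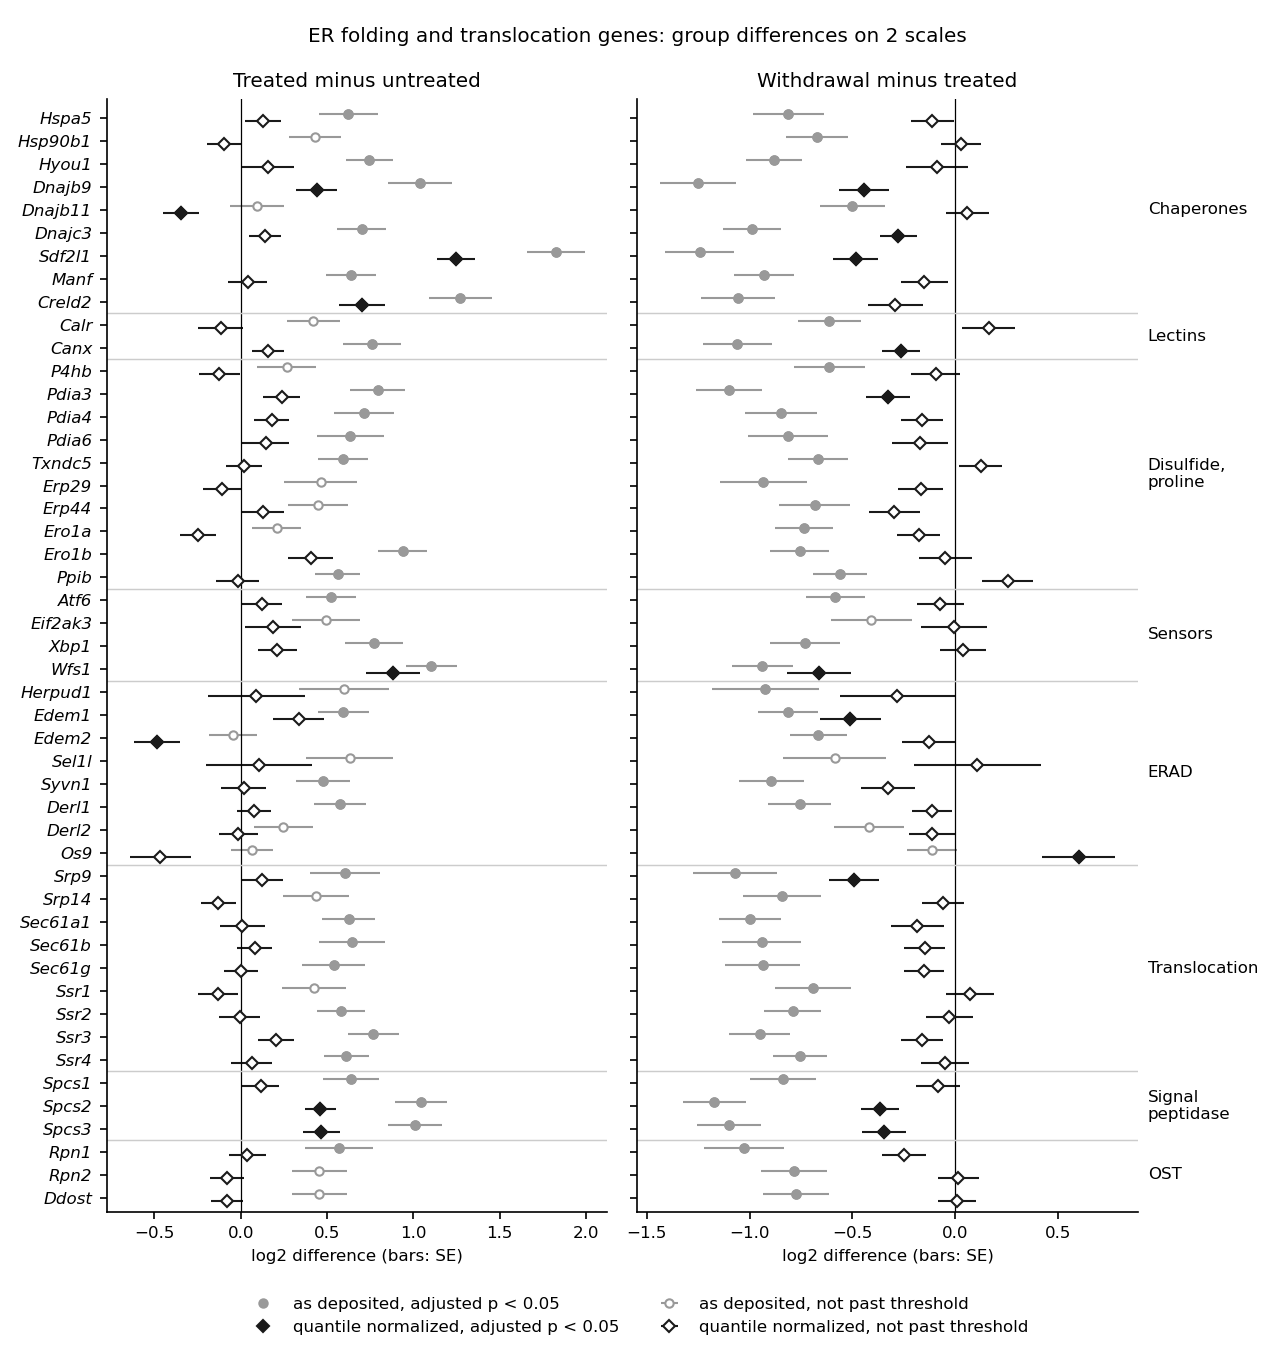
Log2 differences of the 48 genes (horizontal axes; bars, SE; n = 3 arrays per group), by role, for treated minus untreated (left) and withdrawal minus treated (right), as deposited (grey) and after quantile normalization (black), with filled symbols past the threshold. As deposited nearly the whole list lies right of 0 on the left and left of 0 on the right, while after quantile normalization 6 genes are called higher and 2 lower on the left, and 1 higher and 10 lower on the right.

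**Figure D3:**
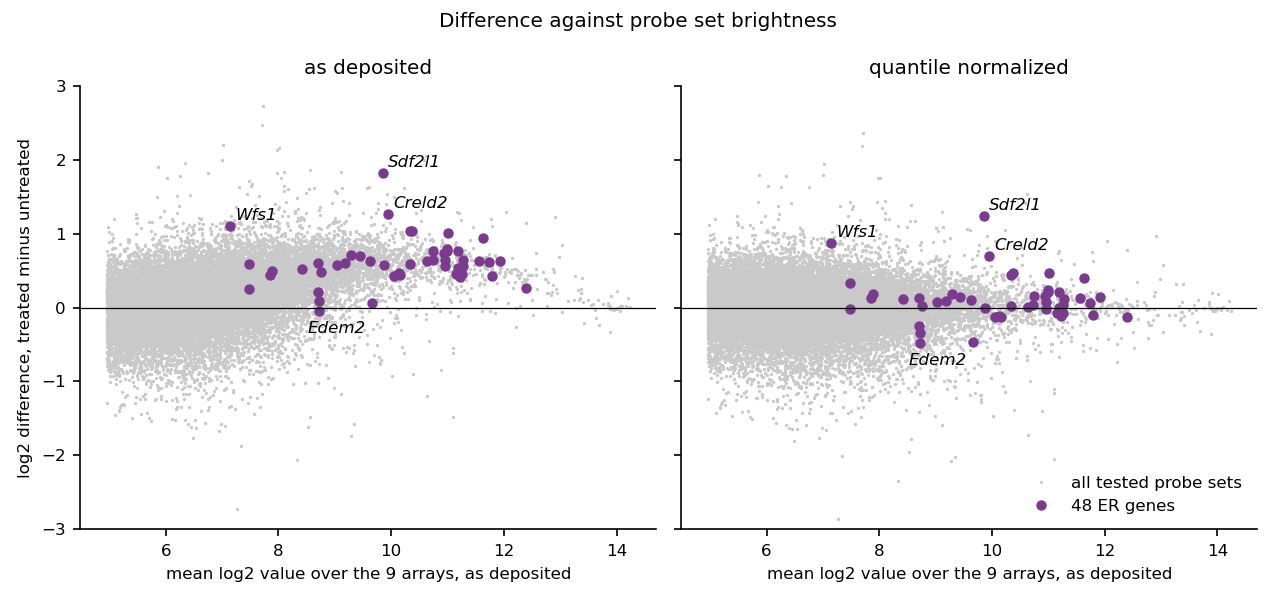
Treated minus untreated log2 difference (vertical axis) of all 20695 tested probe sets (grey) and of the 48 genes (purple) against mean log2 value (horizontal axis), as deposited (left) and after quantile normalization (right). The grey cloud bends upward with brightness on the left and lies level on the right, where Sdf2l1 at 1.24, Wfs1 at 0.88 and Creld2 at 0.70 stay above it and Edem2 at -0.48 lies low.

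The comparison of withdrawal with treated rats followed the same genes from 9 weeks on the drug to 11 weeks, 2 weeks after it. As deposited, 44 of the 48 genes fell and none rose (limma), against 32.6% and 11.2% of all tested probe sets. An unadjusted p under 0.05 gave 46 lower and 0 higher, against 10814 of all 20695 tested probe sets in either direction. The genes that did not pass were Eif2ak3, Sel1l, Derl2 and Os9, the last 3 of them of ER-associated degradation. The median difference was -0.81, with a range from -1.25 for Dnajb9 to -0.11 for Os9, and in 43 genes every withdrawal array lay below every treated array, against 39% of all tested probe sets. Brightness went with this too: at a mean log2 of 10 or more all 28 members fell, against 78.7%, at 8 to 10 it was 13 of 15 against 68.8%, and below 8 it was 3 of 5 against 24.2%.

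After quantile normalization 10 genes fell from treated to withdrawal arrays, against 14.6% of all tested probe sets, and Os9 rose, against 14.5%. The 10 were Dnajb9, Dnajc3, Sdf2l1, Canx, Pdia3, Wfs1, Edem1, Srp9, Spcs2 and Spcs3, and the members' median was -0.14. Sdf2l1 and Wfs1 passed in all 9 fits that left out an array, Spcs2 and Srp9 in 8, Os9 in 7, Dnajb9, Edem1 and Spcs3 in 5, Dnajc3 in 2, Pdia3 in 1 and Canx in 0. The count of genes that fell was 2 without withdrawal array 2, 4 without treated array 3, 5 without treated array 2 and 6 without withdrawal array 3. Over all tested probe sets 3021 fell with every array kept, and 1122, 2375, 2543 and 2404 in these fits. Treated minus untreated and withdrawal minus treated share the treated arrays, so a gene high on those arrays differs in both.

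Between withdrawal and untreated rats no member was called as deposited (0 of 48, limma), against 0.159% of all tested probe sets. An unadjusted p under 0.05 gave 1 higher and 8 lower, against 1553 of all 20695 tested probe sets in either direction. After quantile normalization Sdf2l1 was higher on withdrawal arrays by 0.76 ± 0.11 (adjusted p = 0.0123), the only member called, against 0.0338% of all tested probe sets higher and 0.387% lower. At an unadjusted p under 0.05 there were 4 higher and 6 lower on that scale, against 2170 of all tested probe sets in either direction. The call for Sdf2l1 was lost without untreated array 1 or any of the 3 withdrawal arrays. The sign differed between scales for 13 members. Edem2 had the lowest difference on both scales, -0.71 ± 0.14 as deposited and -0.61 ± 0.13 after quantile normalization (adjusted p = 0.102 and 0.0835). Without treated array 1, which then no longer entered the estimate of the spread, 1 member was higher and 2 lower as deposited. Over all tested probe sets 105 were higher and 293 lower in that fit. With weights for array quality, 24 members were lower and 1 higher as deposited, against 2504 lower and 771 higher of all tested probe sets. Treated array 1 had the lowest weight. The F test over the 3 groups called 44 of 48 members as deposited, against 37% of tested probe sets, and 9 after quantile normalization, against 24.5%. Without treated array 1 it called 14 after quantile normalization, against 29.9%.

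The largest single differences as deposited were those of luminal chaperones, Sdf2l1 in treated minus untreated and Dnajb9 in withdrawal minus treated. As deposited 7 of 9 rose on treated arrays and all 9 fell after withdrawal, and after quantile normalization Sdf2l1, Creld2 and Dnajb9 rose and Dnajb11 fell. Counts by role, here and below, stand beside 20.9% of all tested probe sets higher on treated arrays and 32.6% lower after withdrawal as deposited. At a mean log2 of 10 or more these shares were 51.4% and 78.7%, and at 8 to 10 they were 47.6% and 68.8%. After quantile normalization 7.75% rose and 9.44% fell on treated arrays, and 14.6% fell after withdrawal. Sdf2l1 (probe set 1373043_at), which works with the J-domain chaperone Dnajb11, measured 11.23, 10.65 and 10.73 on treated, 9.68, 9.49 and 9.72 on withdrawal and 8.95, 8.92 and 9.28 on untreated arrays. All treated values lay above all withdrawal values, and these above all untreated values. Its difference was 1.82 ± 0.17 for treated minus untreated (SE, n = 3 per group; adjusted p = 0.000191) and -1.24 ± 0.17 for withdrawal minus treated (adjusted p = 0.000777). Quantile normalization gave 10.47, 10.39 and 10.40 on treated, 10.04, 9.89 and 9.88 on withdrawal and 8.99, 9.24 and 9.30 on untreated arrays, in the same order and again without overlap. The differences on that scale were 1.24 ± 0.11 (adjusted p = 0.000213) and -0.48 ± 0.11 (adjusted p = 0.00963).

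Creld2 (1377016_at), an ER-resident protein known to rise with ER stress and a carrier of an ERSE, measured 11.004, 10.31 and 10.84 on treated, 9.60, 9.62 and 9.76 on withdrawal and 9.33, 9.29 and 9.71 on untreated arrays. Treated values lay above the others, and withdrawal and untreated values overlapped. It rose by 1.27 ± 0.18 on treated against untreated arrays (adjusted p = 0.00162) and by 0.70 ± 0.13 after quantile normalization (adjusted p = 0.00767). Its fall after withdrawal, 1.06 ± 0.18 as deposited, was 0.29 and not past the threshold after quantile normalization (adjusted p = 0.12). On that scale it measured 10.24, 10.05 and 10.50 on treated, 9.97, 10.03 and 9.91 on withdrawal and 9.36, 9.63 and 9.70 on untreated arrays, so that each group stood apart from the next. Dnajb9 (1387116_at), the BiP co-chaperone ERdj4, measured 11.24, 11.04 and 11.01 on treated, 9.87, 9.68 and 9.99 on withdrawal and 10.22, 9.60 and 10.37 on untreated arrays. Its treated values lay above all others, with differences of 1.04 ± 0.18 against untreated and -1.25 ± 0.18 for withdrawal minus treated. After quantile normalization these were 0.44 ± 0.12 (adjusted p = 0.0304) and -0.44 ± 0.12 (adjusted p = 0.0201), and withdrawal and untreated arrays differed by -0.0034.

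Hspa5, which encodes BiP, the main Hsp70 of the ER, measured 12.17, 11.93 and 11.999 on treated, 11.08, 11.15 and 11.44 on withdrawal and 11.58, 11.02 and 11.63 on untreated arrays. Treated values were highest, while withdrawal and untreated values overlapped. It rose by 0.62 ± 0.17 (adjusted p = 0.0216) and fell by 0.81 ± 0.17 after withdrawal (adjusted p = 0.00385). After quantile normalization Hspa5 measured 11.55, 11.66 and 11.73 on treated, 11.51, 11.56 and 11.53 on withdrawal and 11.63, 11.39 and 11.53 on untreated arrays, with overlapping groups and differences of 0.13 ± 0.10 and -0.11 ± 0.10 (adjusted p = 0.403 and 0.43). Hsp90b1, the ER Hsp90, measured 12.36, 11.995 and 12.13 on treated, 11.47, 11.38 and 11.61 on withdrawal and 11.79, 11.46 and 11.94 on untreated arrays. Treated values lay above the others, yet its difference from untreated, 0.43 ± 0.15, did not pass (adjusted p = 0.0525) and was -0.09 after quantile normalization. It fell by 0.67 ± 0.15 from treated to withdrawal arrays as deposited, against a difference of 0.03 on the other scale.

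Dnajb11, the J-domain partner ERdj3, differed between both scales. It measured 9.13, 8.67 and 8.95 on treated, 8.35, 8.38 and 8.51 on withdrawal and 8.93, 8.53 and 9.0 on untreated arrays, and treated and untreated values overlapped, with a difference of 0.09 ± 0.16. After quantile normalization it measured 8.57, 8.49 and 8.71 on treated, 8.61, 8.68 and 8.65 on withdrawal and 8.96, 8.82 and 9.03 on untreated arrays, all treated values lay below all untreated values, and it fell by 0.35 ± 0.10 (adjusted p = 0.0414). Dnajc3, the co-chaperone and PERK inhibitor p58IPK, measured 10.25, 9.86 and 9.89 on treated, 8.98, 8.94 and 9.13 on withdrawal and 9.35, 9.13 and 9.43 on untreated arrays. It rose by 0.70 ± 0.14 as deposited (0.14 and not past the threshold after quantile normalization) and fell after withdrawal by 0.99 ± 0.14 and, after quantile normalization, by 0.28 ± 0.09 (adjusted p = 0.0398). Hyou1, a nucleotide exchange factor for BiP, and Manf, a BiP-binding protein that is also secreted, rose by 0.74 and 0.64 and fell after withdrawal by 0.88 and 0.93 as deposited. Neither passed after quantile normalization in either comparison, at 0.16 and 0.04 for treated minus untreated.

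**Figure D4:**
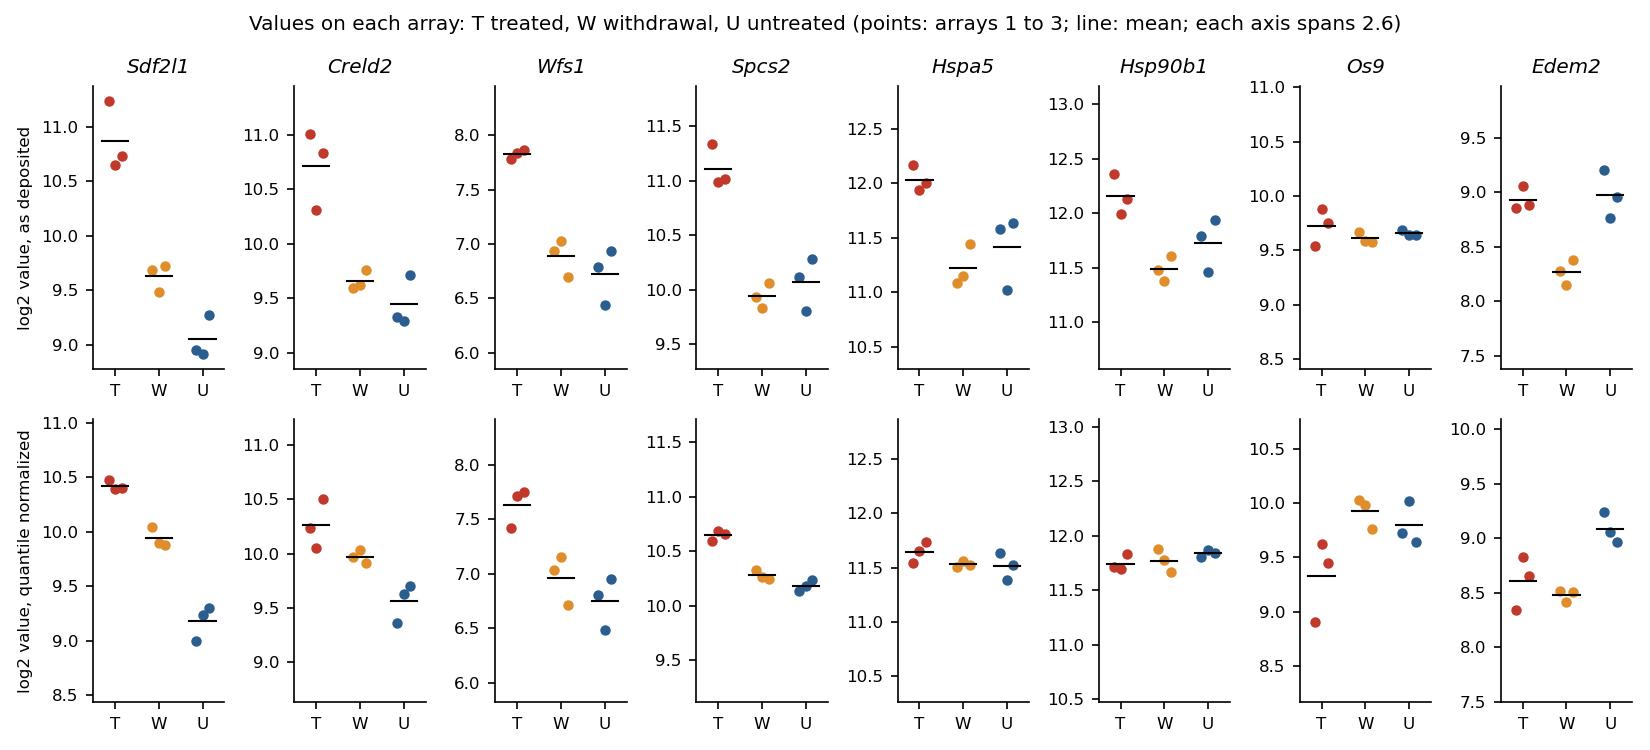
Log2 values (vertical axes, each spanning 2.6) of 8 members on each array, as deposited (upper row) and after quantile normalization (lower row), with T for treated, W for withdrawal and U for untreated arrays and a line at each mean of 3 arrays. The groups of Sdf2l1 stand apart in both rows, those of Hspa5 and Hsp90b1 come together in the lower row, and the treated arrays of Os9 move from level to low.

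Both lectin chaperones, which hold glycoproteins until they fold, fell after withdrawal as deposited. Canx, the membrane-bound calnexin, measured 11.62, 11.17 and 11.28 on treated, 10.26, 10.14 and 10.48 on withdrawal and 10.72, 10.29 and 10.77 on untreated arrays. Treated values lay above the others, with a rise of 0.76 ± 0.17 against untreated (adjusted p = 0.009) and a fall of 1.06 ± 0.17 after withdrawal. After quantile normalization the first was 0.16, not past the threshold, and the fall was 0.26 ± 0.09 (adjusted p = 0.049). Calr, the soluble calreticulin, measured 11.78, 11.32 and 11.63 on treated, 11.06, 10.91 and 10.92 on withdrawal and 11.24, 10.90 and 11.32 on untreated arrays. Its highest untreated value, 11.32, met its lowest treated value, and the difference of 0.42 ± 0.15 did not pass (adjusted p = 0.0588). After quantile normalization the Calr differences were -0.12 for treated minus untreated and 0.16 for withdrawal minus treated, both of opposite sign to the deposited scale.

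Of the 10 disulfide and proline enzymes, 6 rose on treated arrays and all 10 fell after withdrawal as deposited, and after quantile normalization 0 rose and only Pdia3 fell after withdrawal. Of all tested probe sets with a mean log2 of 10 or more, 51.4% rose and 78.7% fell as deposited. Pdia3, the isomerase ERp57 that works with both lectins, measured 11.89, 11.45 and 11.51 on treated, 10.61, 10.36 and 10.59 on withdrawal and 10.96, 10.57 and 10.94 on untreated arrays. Treated values lay above the others, and the differences were 0.79 ± 0.16 for treated minus untreated and -1.10 ± 0.16 for withdrawal minus treated. The corresponding values after quantile normalization were 0.24 (adjusted p = 0.142) and -0.33 (adjusted p = 0.0401). P4hb, the protein disulfide isomerase itself, measured 12.72, 12.79 and 12.53 on treated, 11.97, 11.89 and 12.34 on withdrawal and 12.59, 12.06 and 12.59 on untreated arrays. Treated and untreated values overlapped, and its difference of 0.27 became -0.13 after quantile normalization. Ero1b, the pancreatic oxidase that recharges the isomerases, rose by 0.94 ± 0.14 (adjusted p = 0.00213), the largest rise of these enzymes, and stood at 0.41 ± 0.13 after quantile normalization, just short of the threshold (adjusted p = 0.0539).

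Its widely expressed relative Ero1a measured 9.20, 8.99 and 8.84 on treated, 8.36, 8.15 and 8.31 on withdrawal and 8.95, 8.58 and 8.87 on untreated arrays. Its treated and untreated values overlapped, with a difference of 0.21 ± 0.14, and after quantile normalization it was -0.25 ± 0.10 (adjusted p = 0.114). Both oxidases fell after withdrawal as deposited, Ero1b by 0.76 and Ero1a by 0.73. Ppib, the prolyl isomerase cyclophilin B, measured 11.32, 11.37 and 11.30 on treated, 10.69, 10.69 and 10.93 on withdrawal and 10.81, 10.56 and 10.93 on untreated arrays. It rose by 0.56 and fell by 0.56 as deposited, without overlap, but gave -0.02 and 0.25 after quantile normalization. Txndc5, a thioredoxin-domain isomerase, measured 11.05, 10.63 and 10.61 on treated, 10.16, 10.002 and 10.12 on withdrawal and 10.21, 10.01 and 10.28 on untreated arrays. Its treated values lay above the others, with a rise of 0.59 and a fall of 0.67, and the second became 0.12 after quantile normalization.

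Erp29, a redox-inactive relative, measured 11.13, 10.25 and 10.41 on treated, 9.64, 9.55 and 9.80 on withdrawal and 10.27, 9.86 and 10.28 on untreated arrays. Untreated array 3 exceeded treated array 2, and the difference of 0.46 did not pass and was -0.11 after quantile normalization. The isomerases Pdia4 and Pdia6 rose by 0.71 and 0.63 and fell after withdrawal by 0.85 and 0.81 as deposited. Erp44, which retains client proteins in the early secretory pathway, had a difference of 0.45 that did not pass and a fall of 0.68. None of these 3 passed after quantile normalization.

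Of the 4 measured sensors and regulators, Atf6, Xbp1 and Wfs1 rose on treated arrays and fell after withdrawal as deposited. Wfs1 (1387356_at), the ER membrane protein wolframin whose loss causes Wolfram syndrome with diabetes, measured 7.78, 7.83 and 7.87 on treated, 6.93, 7.03 and 6.69 on withdrawal and 6.79, 6.44 and 6.93 on untreated arrays. All treated values exceeded all others, and withdrawal and untreated values overlapped. It rose by 1.10 ± 0.15 (adjusted p = 0.00125) and fell by 0.94 ± 0.15 after withdrawal (adjusted p = 0.00119). After quantile normalization it measured 7.42, 7.71 and 7.75 on treated, 7.03, 7.15 and 6.71 on withdrawal and 6.81, 6.49 and 6.95 on untreated arrays, with differences of 0.88 ± 0.16 (adjusted p = 0.00547) and -0.66 ± 0.16 (adjusted p = 0.0109), and the treated arrays still stood apart.

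Xbp1, the transcription factor whose mRNA IRE1 splices, measured 11.82, 11.79 and 11.46 on treated, 10.81, 10.87 and 11.21 on withdrawal and 11.05, 10.62 and 11.09 on untreated arrays. Treated values lay above the others, with a rise of 0.77 ± 0.17 (adjusted p = 0.00882) and a fall of 0.73 ± 0.17 as deposited. Quantile normalization gave 11.15, 11.46 and 11.10 on treated, 11.23, 11.29 and 11.31 on withdrawal and 11.07, 10.99 and 11.01 on untreated arrays. The differences on that scale, 0.21 and 0.04, did not pass, and withdrawal values overlapped the treated ones. Spliced and unspliced Xbp1 were not told apart here. Atf6, the membrane-bound factor that acts through ERSE, rose by 0.52 and fell by 0.58 as deposited, and Eif2ak3, the sensor PERK, had differences of 0.49 and -0.41 that did not pass.

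Of the 8 genes of ER-associated degradation, Edem1, Syvn1 and Derl1 rose on treated arrays and 5 fell after withdrawal as deposited. Of their differences 7 were above 0 in treated minus untreated, with a median of 0.53, and all 8 were below 0 in withdrawal minus treated, with a median of -0.71. Edem2, which trims mannose from misfolded glycoproteins, measured 8.85, 9.05 and 8.89 on treated, 8.27, 8.14 and 8.38 on withdrawal and 9.21, 8.76 and 8.95 on untreated arrays. Treated and untreated values overlapped with a difference of -0.04 ± 0.14, the 1 member below 0, and the withdrawal arrays stood lowest, 0.67 ± 0.14 below the treated arrays (adjusted p = 0.00359). Quantile normalization gave 8.34, 8.83 and 8.66 on treated, 8.52, 8.42 and 8.51 on withdrawal and 9.24, 9.06 and 8.97 on untreated arrays, untreated values exceeded all others, and it fell by 0.48 ± 0.13 on treated arrays (adjusted p = 0.0308). Its relative Edem1 measured 7.77, 8.07 and 8.0 on treated, 7.02, 7.04 and 7.34 on withdrawal and 7.51, 7.13 and 7.41 on untreated arrays. It rose by 0.59 ± 0.15 and fell after withdrawal by 0.81 ± 0.15 as deposited, and after quantile normalization gave 0.34 (adjusted p = 0.136) and -0.51 (adjusted p = 0.0255).

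Os9, a lectin that hands misfolded glycoproteins to the degradation complex, measured 9.54, 9.88 and 9.75 on treated, 9.67, 9.59 and 9.58 on withdrawal and 9.68, 9.65 and 9.64 on untreated arrays. All groups overlapped, with differences of 0.07 and -0.11. Quantile normalization gave 8.91, 9.63 and 9.45 on treated, 10.03, 9.99 and 9.76 on withdrawal and 9.72, 10.02 and 9.64 on untreated arrays, treated array 1 was the lowest, and it rose after withdrawal by 0.60 ± 0.18 (adjusted p = 0.0274), a call lost without withdrawal array 1 or withdrawal array 2. Sel1l, the scaffold of that complex, measured 9.29, 10.60 and 10.19 on treated, 9.35, 9.43 and 9.55 on withdrawal and 9.43, 9.34 and 9.43 on untreated arrays. Treated array 1 lay below every withdrawal array while treated arrays 2 and 3 lay above all others, and its differences of 0.63 and -0.59 did not pass. Derl2, a membrane component, measured 8.12, 7.58 and 7.42 on treated, 7.26, 7.16 and 7.43 on withdrawal and 7.48, 7.39 and 7.51 on untreated arrays. Its groups overlapped and neither difference passed, at 0.25 and -0.42.

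The ubiquitin ligase gene Syvn1 (HRD1) rose by 0.48 and Derl1 by 0.58, and they fell after withdrawal by 0.89 and 0.76 as deposited. Herpud1, a membrane protein of the complex and an ERSE-II carrier, had a treated minus untreated difference of 0.60 that did not pass (adjusted p = 0.101) and fell by 0.92. Its treated values ran from 9.20 to 10.18, a wide spread, and treated array 1 was again the lowest. None of these 3 passed after quantile normalization.

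Of the 9 translocation genes, 7 rose on treated arrays and all 9 fell after withdrawal as deposited, beside 51.4% and 78.7% of all tested probe sets with a mean log2 of 10 or more. Srp9, a subunit of the signal recognition particle, measured 9.77, 8.99 and 9.04 on treated, 8.20, 8.07 and 8.32 on withdrawal and 8.68, 8.40 and 8.91 on untreated arrays. Treated array 1 was the highest, all treated values exceeded the others, and the gene rose by 0.60 ± 0.20 (adjusted p = 0.0448) and fell by 1.07 ± 0.20. After quantile normalization the rise was 0.12 and not past the threshold, and the fall was 0.49 ± 0.12 (adjusted p = 0.0129). Srp14, its binding partner, measured 10.998, 10.32 and 10.46 on treated, 9.78, 9.61 and 9.86 on withdrawal and 10.20, 9.84 and 10.42 on untreated arrays. Untreated array 3 exceeded treated array 2, the difference of 0.44 did not pass (adjusted p = 0.102), and on the other scale it was -0.13.

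The Sec61 channel genes Sec61a1, Sec61b and Sec61g rose by 0.62, 0.64 and 0.54 and fell by 1.0, 0.94 and 0.94 as deposited. After quantile normalization their treated minus untreated differences were 0.01, 0.08 and 0.00012. Among the subunits of the translocon-associated complex, Ssr2, Ssr3 and Ssr4 rose by 0.58, 0.77 and 0.61. Ssr1 measured 10.86, 10.29 and 10.14 on treated, 9.82, 9.66 and 9.74 on withdrawal and 10.17, 9.75 and 10.11 on untreated arrays. Its treated and untreated values overlapped, its difference of 0.42 did not pass, and after quantile normalization it was -0.13. Ssr2 measured 10.56, 10.14 and 10.30 on treated, 9.62, 9.45 and 9.56 on withdrawal and 9.68, 9.67 and 9.92 on untreated arrays. Its treated values lay above the others as deposited, while after quantile normalization the difference was -0.01.

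All 3 signal peptidase subunits rose on treated arrays and fell after withdrawal as deposited, and Spcs2 and Spcs3 did so on both scales. As deposited 51.4% of all tested probe sets with a mean log2 of 10 or more rose and 78.7% fell. Spcs2 (1389140_at) measured 11.33, 10.98 and 11.01 on treated, 9.93, 9.83 and 10.06 on withdrawal and 10.11, 9.81 and 10.28 on untreated arrays. Every treated value lay above every other, with a rise of 1.04 ± 0.15 (adjusted p = 0.00182) and a fall of 1.17 ± 0.15 (adjusted p = 0.000759). After quantile normalization it measured 10.60, 10.69 and 10.66 on treated, 10.33, 10.27 and 10.25 on withdrawal and 10.14, 10.18 and 10.24 on untreated arrays, with differences of 0.46 ± 0.09 (adjusted p = 0.00919) and -0.36 ± 0.09 (adjusted p = 0.0151). The treated arrays of Spcs2 lay close together on that scale and above the other groups. Spcs3 (1371579_at) measured 11.83, 11.62 and 11.69 on treated, 10.64, 10.46 and 10.73 on withdrawal and 10.79, 10.37 and 10.95 on untreated arrays. It rose by 1.01 ± 0.16 and fell by 1.10 ± 0.16, and by 0.47 ± 0.11 and 0.35 ± 0.11 after quantile normalization (adjusted p = 0.0141 and 0.0309). Spcs1 rose by 0.64 as deposited and gave 0.11 after quantile normalization, not past the threshold.

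The oligosaccharyltransferase subunits were near the threshold. Rpn1 (ribophorin I) rose by 0.57 ± 0.19 (adjusted p = 0.0472). Rpn2 measured 11.75, 11.37 and 11.55 on treated, 10.79, 10.60 and 10.94 on withdrawal and 11.25, 10.80 and 11.25 on untreated arrays. Ddost measured 11.91, 11.50 and 11.60 on treated, 10.89, 10.74 and 11.07 on withdrawal and 11.35, 10.94 and 11.35 on untreated arrays. For both, all treated values lay above the others, and their differences of 0.46 and 0.46 had adjusted p values of 0.0527 and 0.0516. All 3 fell after withdrawal as deposited, by 1.03, 0.78 and 0.77, beside 78.7% of all tested probe sets with a mean log2 of 10 or more. None passed after quantile normalization, where Rpn2 and Ddost were -0.08 and -0.08 for treated minus untreated.

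Members were also set against their own common level, as a description that subtracts the mean of the 48 genes on each array. The difference in spread between arrays stays in these values, so dim and bright members can still shift with it. The mean of the 48 was 10.73, 10.48 and 10.51 on treated, 9.73, 9.65 and 9.90 on withdrawal and 10.05, 9.71 and 10.12 on untreated arrays, so the treated arrays did not overlap the others. On the quantile-normalized scale it was 10.09 to 10.22 on treated, 10.02 to 10.07 on withdrawal and 10.05 to 10.08 on untreated arrays. Relative to that mean as deposited, Sdf2l1 stood 1.21 higher on treated than on untreated arrays, Creld2 0.66, Wfs1 0.49, Spcs2 0.43, Dnajb9 0.42 and Spcs3 0.39. At the other end Edem2 stood at -0.66, Os9 at -0.55, Dnajb11 at -0.52, Ero1a at -0.41 and Derl2 at -0.37. After quantile normalization, without that subtraction, these differed by -0.48, -0.47, -0.35, -0.25 and -0.01. Hspa5 was at 0.01, close to the middle of the group. Relative values of 10 members lay higher and of 10 lower on all treated arrays than on all untreated ones. The values are centred on the members' own mean, so differences above 0 are balanced by others below it. No share over all probe sets was taken for this measure.

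**Figure D5:**
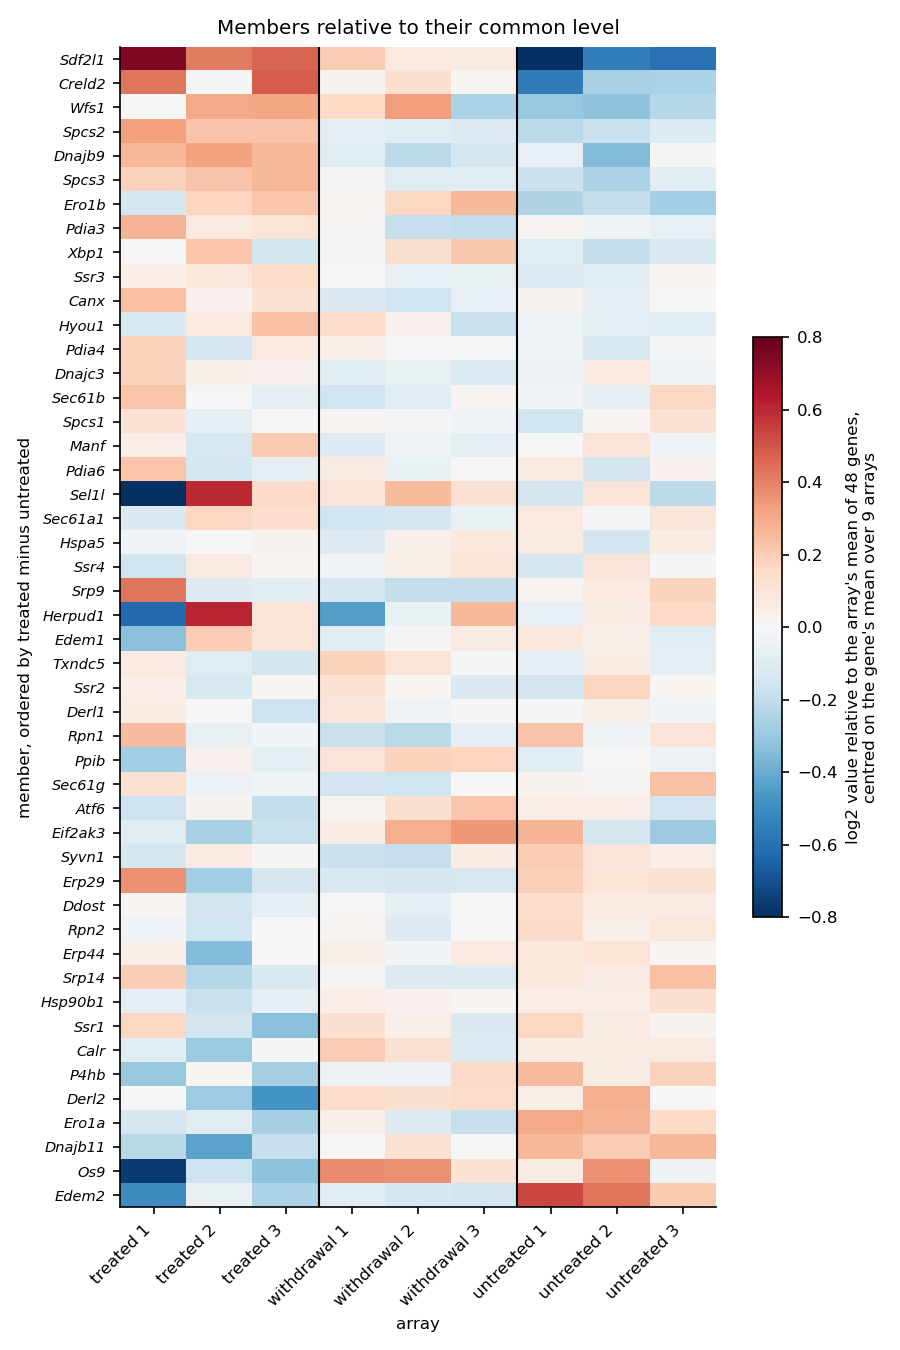
Each member's log2 value relative to the mean of the 48 genes on the same array, centred on its own mean over the 9 arrays (colour; red higher, blue lower, saturated at 0.8), with arrays as columns and members ordered by treated minus untreated. Sdf2l1 at the top turns from red on treated to blue on untreated arrays, Edem2 at the foot does the reverse, and Sel1l and Herpud1 differ most among the treated arrays.

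The genes were also split by the promoter elements shown above, as a description with no test. The 9 genes with ERSE or ERSE-II had a median treated minus untreated difference of 0.70, and the 30 with a window and neither element 0.57, as deposited. After quantile normalization the medians were 0.14 and 0.05, and 1 of the 9, Creld2, rose, while of the 30 genes 5 rose and 2 fell. The withdrawal minus treated medians were -0.81 and -0.83 as deposited and -0.09 and -0.14 after quantile normalization. Sdf2l1, Dnajb9, Wfs1, Spcs2 and Spcs3, the other genes that rose on both scales, held neither run of letters in their windows.

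Further probe sets gave a check within genes. There were 14 members with more than 1 probe set, and 18 of their 20 further probe sets passed the filter. No gene's tested probe sets differed in sign in treated minus untreated or withdrawal minus treated as deposited, while Hyou1, Os9 and Ssr3 did in withdrawal minus untreated. The dimmer Hyou1 probe set 1370665_at had a treated minus untreated difference of 1.19 as deposited and of 0.76 after quantile normalization (adjusted p = 0.0338), against 0.74 and 0.16 for the brighter one. Further probe sets of Ssr3, Sec61a1 and Erp44 also rose after quantile normalization, by 0.54, 0.52 and 0.47. The other further probe sets of these genes, at 0.12, 0.32 and 0.33, did not pass. As deposited, both further probe sets of Derl1 and a further one each of Pdia3 and Edem1 did not pass. Further probe sets of Ssr1, Erp44 and Os9 passed as deposited where the brighter one did not. For Os9, 1397583_at gave 0.47 as deposited and 0.39 after quantile normalization, against -0.47 for the brighter probe set on that scale, so the direction of Os9 depends on the probe set. In withdrawal minus treated after quantile normalization, further probe sets of Erp44 (-0.51 and -0.49), Sec61a1 (1395675_at, -0.63) and Ssr1 (1390767_at, -0.44) fell. The brighter Ssr1 probe set stood at 0.07. No other further probe set passed. Those of Canx gave -0.20 and -0.16, of Pdia3 -0.23 and of Edem1 -0.29 and -0.15, though their brightest ones were called. Os9 1397583_at gave -0.35, against 0.60 for the brighter one.

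The rest of the pathway was followed in 100 tested genes that are not members. As deposited 60 rose on treated arrays and 0 fell, with a median of 0.52, while on the quantile-normalized scale the count was 10 up and 2 down, around a median of 0.07, beside 7.75% higher and 9.44% lower over all tested probe sets. The deposited counts stand beside 20.9% higher and 7.24% lower. Brighter probe sets rose more often as deposited, 47.6% of all those with a mean log2 of 8 to 10 and 51.4% at 10 or more. After withdrawal 68.8% and 78.7% of these fell. The 100 genes were not split by brightness. In withdrawal minus treated, 77 fell and 0 rose as deposited, and 16 fell and 2 rose after quantile normalization, beside 32.6% lower and 11.2% higher of all tested probe sets as deposited and 14.6% and 14.5% after quantile normalization. In withdrawal minus untreated none was called on either scale. By list, the genes that rose as deposited were 11 of 13 other translocation and signal peptide genes, 8 of 14 N-glycosylation and calnexin cycle genes, 6 of 22 other folding enzymes, 11 of 14 other degradation genes, 5 of 12 stress regulators, 13 of 17 ER to Golgi transport genes and 6 of 8 genes of the PERK and ATF4 branch.

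Of these genes the largest difference was that of Atf3, a stress-induced transcription factor of the PERK branch, which measured 7.61, 7.74 and 8.0 on treated, 5.65, 6.64 and 7.26 on withdrawal and 6.03, 5.82 and 6.04 on untreated arrays. Treated values exceeded the others, and the withdrawal values were widely spread. Atf3 rose by 1.82 and by 1.63 after quantile normalization (adjusted p = 0.00911). Ppp1r15a, the GADD34 phosphatase subunit of the same branch, rose by 1.03 and 0.68. Hspa13, an ER-associated Hsp70 relative, measured 9.55, 9.24 and 9.41 on treated, 8.28, 8.29 and 8.45 on withdrawal and 8.43, 8.37 and 8.41 on untreated arrays and rose by 1.0 and 0.52, with treated values above all others. Kdelr3 and Kdelr2, receptors that return chaperones from the Golgi, rose by 0.87 and 0.95 as deposited and by 0.66 and 0.37 after quantile normalization. The COPII coat gene Sec23b, the ER stress factor gene Creb3l1 and the degradation genes Ubxn4, Herpud2 and Ube2g2 were the others that rose on both scales, by 0.41, 0.42, 0.32, 0.44 and 0.39 after quantile normalization. Fkbp9 and Tmed9 fell on that scale alone, by 0.47 and 0.34.

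Markers of cell types moved beside the members. Marker counts in treated minus untreated stand beside 20.9% higher and 7.24% lower of all tested probe sets as deposited, and 7.75% and 9.44% after quantile normalization. Of 14 tested acinar markers 1, Amy2a3, rose on treated arrays as deposited, but their array means of 12.5 to 12.7 on treated, 12.5 to 12.8 on withdrawal and 12.5 to 12.7 on untreated arrays lie near the top of the scale. After quantile normalization 0 acinar markers rose and 1 fell. Of 7 tested beta cell markers 3 rose as deposited and 0 after quantile normalization, with array means of 11.9 to 12.0 on treated, 11.2 to 11.4 on withdrawal and 11.4 to 11.6 on untreated arrays. Of 5 tested markers of other hormone cells, Sst, Ppy and Pyy rose on both scales, by 0.77, 0.77 and 0.91 after quantile normalization. Of 7 tested lymphocyte and plasma cell markers 4 fell on treated arrays on both scales, with array means of 5.28 to 5.45 on treated and 5.61 to 5.76 on untreated arrays, and the plasma cell genes Jchain and Mzb1 were under the filter on dim probe sets. Macrophage and myeloid markers had array means of 6.65 to 8.0 on treated, 7.64 to 7.81 on withdrawal and 7.20 to 7.33 on untreated arrays, and 1 of 10 tested fell on treated arrays. Stellate and fibroblast markers had array means of 8.84 to 10.29 on treated, 9.65 to 9.90 on withdrawal and 9.33 to 9.83 on untreated arrays, a wide spread among the treated arrays, and 1 of 9 tested fell on treated arrays as deposited and 3 after quantile normalization. Of 7 tested endothelial markers 0 fell as deposited and 2 after quantile normalization (limma), and of 7 tested duct markers 1 fell on each scale. In withdrawal minus treated after quantile normalization, 3 of 7 beta cell and 4 of 5 other hormone cell markers fell, while 7 of 9 stellate, 5 of 10 macrophage and 4 of 7 lymphocyte and plasma cell markers rose. On that scale 1 of 14 acinar and 1 of 7 duct markers rose too, and 0 of 7 endothelial markers were called. Of all tested probe sets 14.6% fell and 14.5% rose. As deposited the same comparison gave 4 beta cell and 4 other hormone cell markers lower, and 0 stellate, 2 macrophage and 4 lymphocyte and plasma cell markers higher. It also gave 2 duct and 2 endothelial markers lower and 1 acinar and 1 duct marker higher. Of all tested probe sets 32.6% were lower and 11.2% higher. The part of these cell types in the members' differences was not tested.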

How the data were processed

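The deposited values are log2 signals per probe set, as the authors processed them; RMA and MAS5 are named per the submitters' processing notes, without versions or roles, and the log2 scale was read from the range of the values. Of 31042 probe sets that are not controls, the 33.3% with the lowest mean log2 value (below 4.95) were left out, and 20695 were tested with limma (version 3.58.1; R 4.3.3), fitting all 9 arrays by lmFit and eBayes (1 term per group, 6 residual degrees of freedom before moderation), with Benjamini-Hochberg adjustment over all tested probe sets and a threshold of 0.05. Errors are standard errors of that fit. The fit was tested on simulated data with independent noise and no difference in spread between arrays, so that test does not cover the unequal spread seen here. The member genes and all lists were chosen with earlier results of these data known. Values on every array are given for members past the threshold on both scales in treated minus untreated or withdrawal minus treated, for members called in withdrawal minus untreated, for members whose sign differed between scales in either of the first comparisons, and for Hspa5, Xbp1, Ins1 and Ins2. Of the non-control probe sets 20826 carried 1 gene symbol, 436 several and 9780 none, and only the first were named. The promoter window of 1 member was left out of the promoter search and is not reported here. The labels do not say whether the same array number pairs samples, and the samples were not treated as paired. Precision is limited by 3 arrays per group, and no read depth applies. The comparisons were repeated under other normalizations, filters, weights and with each array left out.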

Additional observations from a re-analysis of the deposited data

How the results depend on the processing

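The counts for treated minus untreated, withdrawal minus treated and the F test changed by over 1.5 times with the normalization between arrays, and those for withdrawal minus untreated with array weights. After quantile normalization and after cyclic loess, treated minus untreated gave 6 and 6 members higher and 2 and 2 lower, withdrawal minus treated 10 and 7 lower and 1 and 1 higher, withdrawal minus untreated 1 and 1 higher, and the F test 9 and 9 members. In the same order, quantile normalization called 17.2%, 29.1%, 0.420% and 24.5% of all tested probe sets, and cyclic loess 18.5%, 28.5%, 0.271% and 23.4%. The sign of members called on either scale turned after quantile normalization in treated minus untreated for Dnajb11 (-0.35), Ppib (-0.017) and Ssr2 (-0.0070), and in withdrawal minus treated for Hsp90b1 (0.028), Dnajb11 (0.059), Calr (0.16), Txndc5 (0.12), Ppib (0.25), Xbp1 (0.038), Os9 (0.60), Ssr1 (0.073), Rpn2 (0.014) and Ddost (0.0079). After cyclic loess it turned in treated minus untreated for Hspa5 (-0.0021), Dnajb11 (-0.36), Pdia6 (-0.0049), Ppib (-0.040), Sec61g (-0.072), Ssr4 (-0.022) and Rpn1 (-0.045), and in withdrawal minus treated for Hspa5 (0.037), Hsp90b1 (0.19), Dnajb11 (0.10), Calr (0.22), P4hb (0.28), Pdia6 (0.055), Txndc5 (0.10), Ero1b (0.10), Ppib (0.25), Xbp1 (0.10), Os9 (0.61), Ssr1 (0.059), Ssr4 (0.10), Rpn2 (0.040) and Ddost (0.058). In treated minus untreated 11 members, in withdrawal minus treated 1 and in withdrawal minus untreated 13 changed sign after quantile normalization without passing on either scale, and after cyclic loess 11, 2 and 14. The cause was not tested. These signs are those of each gene's brightest probe set. The further probe sets of Ssr1 and Os9 stayed negative in withdrawal minus treated after quantile normalization. In withdrawal minus untreated, array weights gave 1 member higher and 24 lower, and a fit of only the 6 arrays compared gave 1 higher and 2 lower. Over all tested probe sets these fits called 15.8% and 2.39%, against 0.159% in the fit reported. With each array left out in turn, counts as deposited ran from 14 to 37 higher and 0 to 0 lower in treated minus untreated, 41 to 45 lower and 0 to 0 higher in withdrawal minus treated, 0 to 1 higher and 0 to 2 lower in withdrawal minus untreated, and 35 to 45 by the F test. Over all tested probe sets 9.82% to 30.5% were called in treated minus untreated and 27.0% to 46.0% in withdrawal minus treated. The share was 0.0338% to 1.92% in withdrawal minus untreated and 23.0% to 41.6% by the F test. After quantile normalization, where these fits were chosen after seeing the data, the member counts ran from 4 to 9 higher and 0 to 2 lower, 2 to 11 lower and 0 to 1 higher, 0 to 1 higher and 0 to 1 lower, and 6 to 14. The shares of all tested probe sets called on that scale were 6.13% to 22.1%, 12.5% to 32.8%, 0.126% to 1.98% and 12.3% to 29.9%. A fit with the replicate number as a block gave 36 members higher in treated minus untreated, 44 lower in withdrawal minus treated and 0 in withdrawal minus untreated. Of all tested probe sets it called 31.0%, 45.6% and 0.242%. With the block after quantile normalization there were 7 higher and 2 lower, 9 lower and 1 higher, and 1 higher. That fit called 18.8%, 30.3% and 0.348% of all tested probe sets. The correlation of deviations between arrays of the same number ranged from -0.28 to 0.50 over the 9 pairs as deposited. Between arrays of different numbers it ranged from -0.48 to 0.41. With 3 arrays per group this cannot decide whether the numbers pair the samples, and they were not taken to do so. Median centring, no filter, leaving out more of the dim probe sets, a trended robust fit and means over a gene's probe sets kept every count of members within 1.5 times that of the fit reported. All 48 members passed the filter, so it left none of them out. Passing it does not show that brightness had no part in the calls. Wfs1, called on both scales, was the dimmest member, at a mean log2 of 7.14. With 3 arrays per group the fit's standard errors were 0.12 to 0.26 as deposited and 0.09 to 0.31 after quantile normalization. Differences well above their error could still miss the threshold. In treated minus untreated, Hsp90b1 at 0.43 ± 0.15 as deposited and Ero1b at 0.41 ± 0.13 after quantile normalization did not pass (limma, adjusted p = 0.0525 and 0.0539).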
